A study of Mus musculus with 6 samples.

Results

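The genes described here shape and line the plasma membrane of capillary endothelium: Ehd1, Ehd2, Ehd3 and Ehd4 of the EHD family, the caveolin genes Cav1 and Cav2, Pacsin2, the diaphragm gene Plvap and the water channel gene Aqp1. They were chosen by symbol, and each of the 9 matched 1 row among the 12911 genes that every library lists. RNA sequencing had been done on glomerular endothelial cells of eNOS-null mice, which lack endothelial nitric oxide synthase. The control group had no treatment, and the STZ group had streptozotocin, which kills the insulin-producing cells of the pancreas and makes mice diabetic, so both groups carry the eNOS-null genotype. Each group has 3 libraries, numbered pools 1, 2 and 3, and each library holds the pooled RNA of 4 mice. These numbers are those of the sample titles, and the count column of control pool 3 carries the number 4. Glomeruli were captured with perfused magnetic beads and digested, and cells were sorted for EYFP fluorescence. The sources used here name neither the driver of EYFP, nor the age and sex of the mice, nor the dose and duration of STZ. Counts of sex-linked genes, given below, had the female pattern in control pools and the male pattern in STZ pools.

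EHD proteins are dynamin-like ATPases that bend and cut membranes at recycling endosomes and at the plasma membrane. Caveolins form the coat of caveolae, flask-shaped pits that are abundant in endothelium, and caveolin-1 binds and inhibits eNOS, the enzyme missing here. EHD2 and the F-BAR protein PACSIN2 sit at the neck of caveolae. PLVAP builds the thin diaphragms that span caveolae and the fenestrae of most fenestrated capillaries, whereas fenestrae of the adult glomerulus mostly have none. Within the mouse kidney EHD3 is found mainly in glomerular endothelium, and mice lacking both EHD3 and EHD4 develop thrombotic microangiopathy of the glomerulus.

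Ehd3 and Aqp1 rose in STZ pools and Plvap fell, while the other 6 genes did not pass the test. Treatment and sex cannot be told apart in any of these comparisons. Ehd3 was 1.74-fold higher (95% interval 1.48 to 2.05), Aqp1 1.64-fold higher (1.36 to 1.97) and Plvap at 0.62 of the control level (0.518 to 0.743), with 3 libraries in each group. By edgeR's quasi-likelihood test these 3 of 9 genes were called (adjusted p under 0.05), beside 9.78% of all 12786 tested genes. By direction, 2 of 9 were called higher beside 5.47% of all tested genes, and 1 of 9 was called lower beside 4.32%. The 9 genes had a median log2 fold change (STZ over control) of 0.24, and all tested genes had one of -0.01. DESeq2 (10.6% of its tested genes called) and limma-voom (9.25%) each called the same 3 genes.

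**Figure D1:**
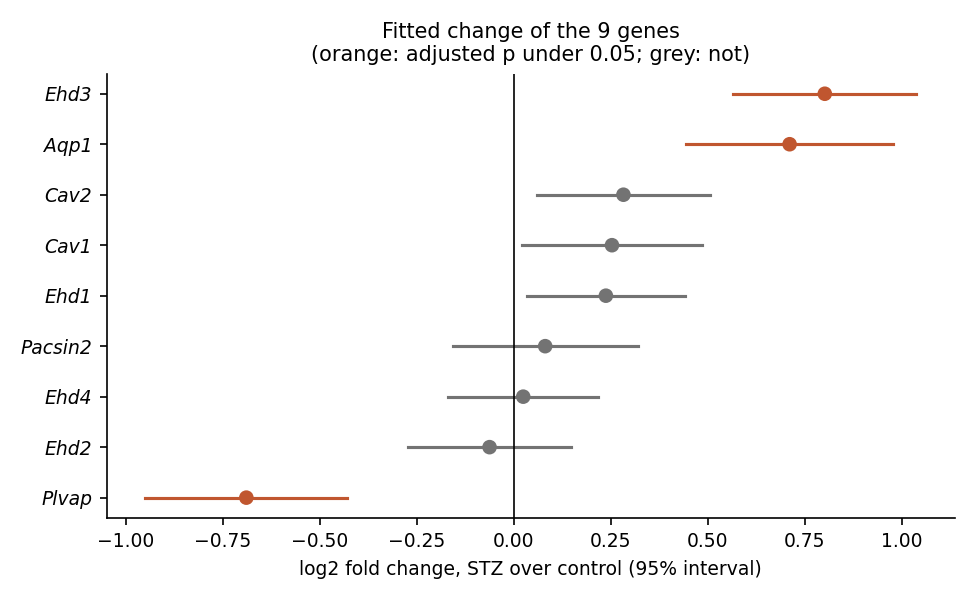
Fitted log2 fold change of STZ over control (horizontal axis) for each of the 9 genes (vertical axis), with its 95% interval from the edgeR fit on 3 against 3 libraries. The intervals of Ehd3 (0.57 to 1.04), Aqp1 (0.44 to 0.98) and Plvap (-0.95 to -0.43) lie far from 0, and orange marks these 3 called genes.

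Promoter windows of Ehd3, Ehd4 and Aqp1 are shown because Ehd3 and Aqp1 were the genes that rose and Ehd4 is the paralog of Ehd3 whose level was most alike in both groups. They come from RefSeq on build GRCm38.p6 and run from 250 bases before to 50 bases after the annotated start, 5′ to 3′ on the gene's strand. A window was found for 7 of the 9 genes, the others being Ehd1 and Plvap. Capitals mark matches, on either strand, to any of 5 motifs. The first is GGGCGG, known as the binding box of Sp and Krüppel-like factors. The second is AGGAAG, which is bound by endothelial Ets factors. The others are the core promoter box TATAAA, the zinc finger site AGATAA of blood and endothelial regulators, and the Sox factor site AACAAT. Matches did not overlap one another in the windows shown. The windows lie at chr17:73804591-73804890 (plus strand) for Ehd3, chr2:120154526-120154825 (minus strand) for Ehd4 and chr6:55336049-55336348 (plus strand) for Aqp1.
Ehd3: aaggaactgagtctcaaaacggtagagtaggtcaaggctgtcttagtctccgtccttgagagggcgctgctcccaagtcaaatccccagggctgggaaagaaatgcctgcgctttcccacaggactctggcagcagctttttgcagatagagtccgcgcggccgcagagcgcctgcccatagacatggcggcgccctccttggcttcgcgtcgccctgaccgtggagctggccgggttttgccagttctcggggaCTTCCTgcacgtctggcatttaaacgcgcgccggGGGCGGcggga
Ehd4: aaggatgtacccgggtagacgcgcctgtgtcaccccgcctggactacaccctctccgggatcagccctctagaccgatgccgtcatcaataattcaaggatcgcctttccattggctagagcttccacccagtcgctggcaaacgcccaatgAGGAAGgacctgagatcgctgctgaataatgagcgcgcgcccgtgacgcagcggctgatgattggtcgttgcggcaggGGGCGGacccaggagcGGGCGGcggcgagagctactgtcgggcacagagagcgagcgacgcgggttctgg
Aqp1: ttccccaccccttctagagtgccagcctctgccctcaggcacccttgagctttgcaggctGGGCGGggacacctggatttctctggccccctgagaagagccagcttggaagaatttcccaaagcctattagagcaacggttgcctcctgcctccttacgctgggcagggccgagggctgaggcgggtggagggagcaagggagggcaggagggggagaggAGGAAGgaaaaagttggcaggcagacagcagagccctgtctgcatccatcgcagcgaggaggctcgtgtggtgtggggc

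The windows of Ehd3 and Aqp1 each held 1 match to the Sp motif and 1 to the Ets motif, and that of Ehd4 held 2 and 1. Of all 32851 windows of this length, 35.7% held the Sp motif and 35.4% the Ets motif. The core promoter box (13.6% of all windows), the zinc finger site (11.2%) and the Sox factor site (10.7%) had no match in the 3 windows. The windows at the listed starts of Ehd2, Cav1, Cav2 and Pacsin2 each held 2 Sp matches. That of Cav1 also held 1 Ets match and 1 match to the core promoter box. CpG dinucleotides numbered 24 in the Ehd3 window, 29 in that of Ehd4 and 8 in that of Aqp1, where the median of all windows is 7. GC content was 61.7%, 62.7% and 62.7%, where the median of all windows is 52.7%. A match of letters is a description and not a binding site.

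Depth and other features of the libraries differed along the same line as the treatment. Total deposited counts ran from 4387339 to 8751732.5 in control and from 10734376 to 12662371.5 in STZ libraries, so every STZ library was deeper. Xist, the RNA that silences an X chromosome in female cells, had 3378 to 6276 counts in control and 4 to 10 in STZ libraries. The Y-linked gene Ddx3y had 12 to 29 against 1353 to 1717. Control pools thus had the female pattern and STZ pools the male one, so treatment and sex cannot be told apart. The endothelial label was met by the summed level of 10 pan-endothelial markers, including Pecam1, Cdh5 and Kdr, which ran from 10225 to 10947 CPM (the count divided by the normalized library size, times 1000000) in control and from 13020 to 13853 in STZ. Of these markers 5 were called higher by edgeR. The 8 glomerular endothelial markers summed to 4052 to 4886 CPM in control and 10626 to 12645 in STZ. By edgeR 4 were called higher (5 by DESeq2, 6 by limma-voom). Plat (log2 fold change 1.66 ± 0.15, SE) and Lpl (1.42 ± 0.22), the most abundant over all libraries, rose. Tbx3 (0.17 ± 0.12; adjusted p = 0.445 by edgeR), which stood above Lpl in control, and Sema5a (-0.07 ± 0.11; 0.766) were not called. Markers of other cells were present: the 10 podocyte markers summed to 4339 to 6994 CPM in control and 4696 to 5805 in STZ with none called by edgeR (2 had an unadjusted p under 0.05, and DESeq2 and limma-voom each called 0). Most of that sum is Podxl, which endothelium also expresses. The other 9 podocyte markers all had a negative log2 fold change (median -0.65) and summed to 1383 to 2972 CPM in control and 1373 to 1927 in STZ. The 12 mesangial and mural markers summed to 1428 to 1545 against 606 to 1150 with 4 called lower (5 by DESeq2, 7 by limma-voom). In bulk RNA, more cells of a type and more RNA per cell cannot be told apart.

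Ehd3 (NM_020578) lies on mm10 chromosome 17, 73804841 to 73832093, plus strand, and its GENCODE transcript has 6 exons. The tables give it 30552, 18384 and 12189 counts for control pools 1, 2 and 3, and 56959, 59150 and 62616 for STZ pools 1, 2 and 3. Scaled to library size this was 3357, 2953 and 2693 CPM in control and 5507, 5115 and 5068 CPM in STZ. Every STZ pool lay above every control pool, and the gap between the groups was wider than the spread within either. Mean CPM rose from 3001 ± 335 to 5230.0 ± 241 (SD, n = 3 each), with a log2 fold change of 0.80 ± 0.11 (SE; adjusted p = 0.000461 by edgeR quasi-likelihood). Ehd3 held 0.278% to 0.349% of all counts in control and 0.490% to 0.531% in STZ libraries. By count it ranked 2, 4 and 4 among all genes of the control libraries and 2 in each STZ library. By count per kilobase of listed transcript it ranked 18, 26 and 25 in control pools and 10, 9 and 10 in STZ pools.

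The rise of Ehd3 was set beside the endothelial content of the libraries, by a ratio chosen after the data were seen. As a percentage of the summed CPM of the 10 pan-endothelial markers, Ehd3 stood at 30.7%, 27.4% and 26.3% in control pools and at 39.8%, 37.8% and 38.9% in STZ pools. The groups stayed apart on that scale, with a ratio of means of 1.38, although that sum holds 5 called genes and is no neutral reference. On that scale Aqp1 also stayed above (0.800% ± 0.0366 in control and 1.04% ± 0.223 in STZ) and Plvap below (1.15% ± 0.219 and 0.562% ± 0.0288), and the groups of Ehd4 (4.02% ± 0.364 and 3.23% ± 0.0570) and Ehd2 (2.78% ± 0.362 and 2.10% ± 0.169) came apart with STZ pools lower. Against the summed CPM of the 8 glomerular endothelial markers the direction of Ehd3 turned: it stood at 69.4%, 60.4% and 66.5% in control pools and at 47.2%, 40.4% and 47.7% in STZ pools, a ratio of means of 0.689. On that scale all 9 genes were lower in every STZ pool than in any control pool, Aqp1 included (1.86% ± 0.170 and 1.22% ± 0.335). Most of that sum is Plat, the plasminogen activator gene, which went from 2630 ± 544 to 8303 ± 603 CPM. Without Plat the groups of Ehd3 overlapped (154% ± 24.9 and 158% ± 21.4), as did those of Aqp1. Among 6452 genes with a mean log2 CPM of at least 5, the 3 whose centred log2 CPM lay nearest to Ehd3 over the 6 libraries were Txnip, the thioredoxin inhibitor (root mean square difference 0.036), Rin2, an exchange factor of Rab5 (0.041), and the clock-linked repressor Bhlhe40 (0.048). Rin2 stood at 260 ± 27.5 CPM in control and 461 ± 16.1 CPM in STZ (SD, n = 3 each). These genes were picked for likeness over the same libraries, so their difference between the groups follows from that choice.

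Ehd4 (NM_133838; mm10 chromosome 2, 120089487 to 120154575, minus strand), which acts at early endosomes, was level between the groups. It had 399, 437 and 447 CPM in control pools and 446, 430 and 428 CPM in STZ pools. The STZ values all lay inside the control range. Its log2 fold change was 0.02 with a 95% interval of -0.17 to 0.22, which bounds a change at 0.889-fold to 1.16-fold (adjusted p = 0.904 by edgeR). Ehd2 (NM_153068; mm10 chromosome 7, 15948987 to 15967535, minus strand), the member that holds caveolae at the cell surface, had 278, 280 and 327 CPM in control and 286, 264 and 297 CPM in STZ. The ranges overlapped, and its fold change was 0.958 with an interval of 0.828 to 1.11 (adjusted p = 0.753 by edgeR).

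Ehd1 (NM_010119; mm10 chromosome 19, 6276896 to 6300096, plus strand), which drives the return of receptors from recycling endosomes, was the scarcest of the family. Its CPM were 69.4, 79.5 and 83.5 in control pools and 91.8, 93.3 and 87.9 in STZ pools. All STZ pools lay above all control pools, by a small margin. The log2 fold change was 0.24 ± 0.09 (SE), with an unadjusted p of 0.0252 and an adjusted p of 0.140 by edgeR, so Ehd1 did not pass. Groups that do not overlap were found in 5 of the 9 genes (Ehd1, Ehd3, Cav1, Plvap and Aqp1) and in 29.1% of all tested genes.

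**Figure D2:**
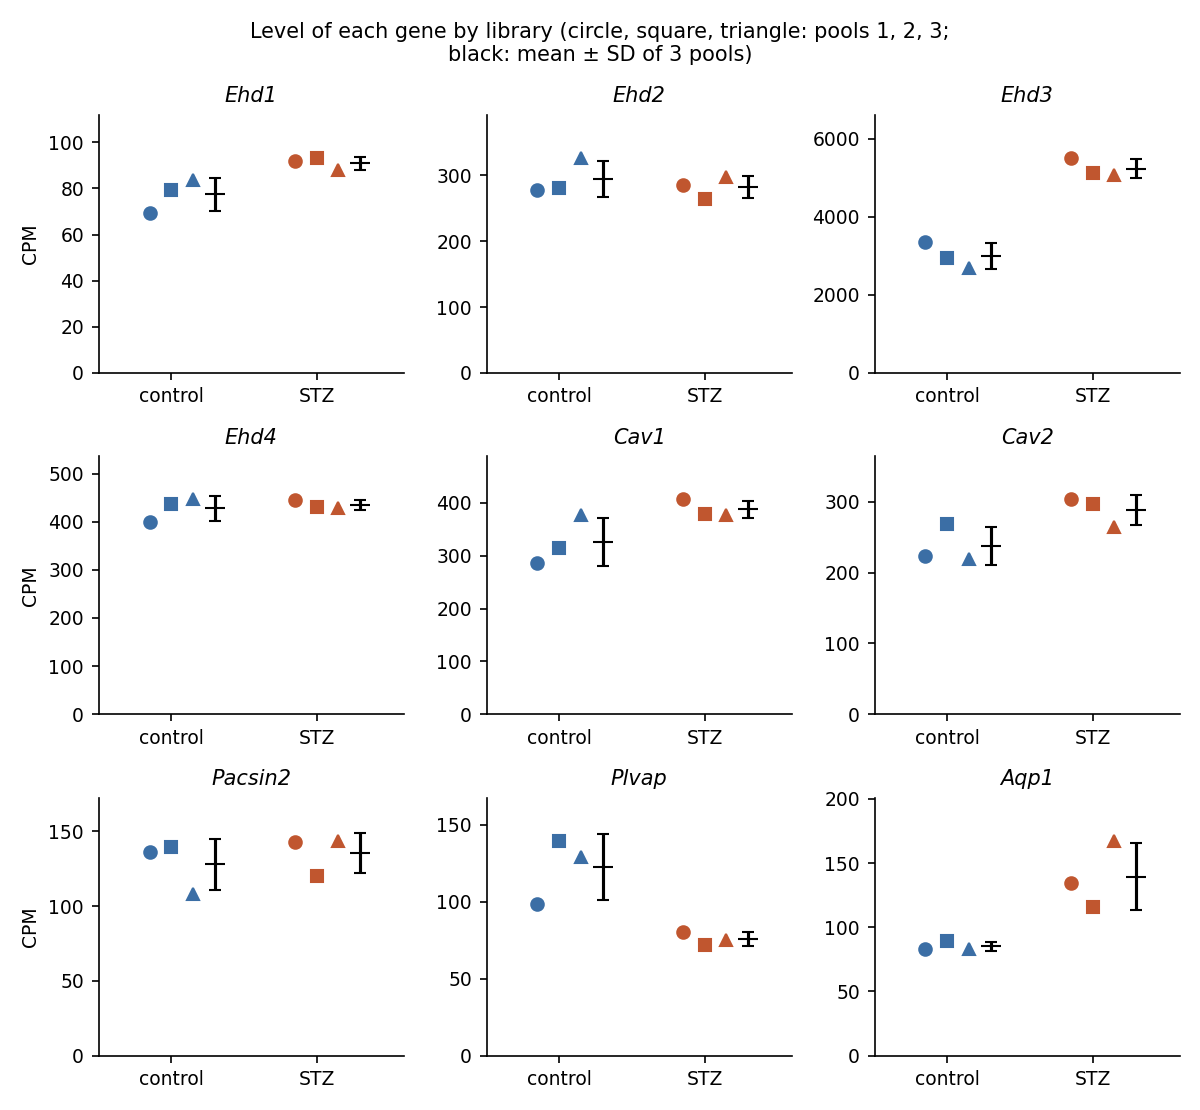
CPM of each of the 9 genes (vertical axes, each starting at 0) in the 3 control and 3 STZ libraries, with markers for pools 1 to 3 and the mean ± SD in black. The STZ points of Ehd3 and Aqp1 lie above all control points, those of Plvap lie below, and those of Ehd4 (428 to 446 CPM) fall within the control range of 399 to 447 CPM.

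Reads of EHD genes could be confused with each other only where their sequences are alike. Between the GENCODE transcripts of Ehd1 and Ehd3, 11 windows of 30 bases were identical, out of 3324 in Ehd1 and 3630 in Ehd3, and no window of 50 bases was. The other pairs of EHD transcripts shared no window of 30 bases. Exact 30-base matches to Ehd3 made up 0.331% of the Ehd1 windows, a share that takes no account of abundance. Ehd3 per kilobase was 28.0 to 42.1 times Ehd1 per kilobase in control pools and 47.7 to 52.2 times in STZ pools. Near matches were not counted, and the part of Ehd3 reads in the Ehd1 counts was not tested.

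Of the 4 EHD genes, Ehd3 alone was called, and it took a larger share of the family in STZ pools. As a share of the family's counts per kilobase of listed transcript, Ehd3 made up 79.9%, 76.7% and 73.5% in control pools and 85.6%, 85.2% and 84.7% in STZ pools. The STZ shares lay above all control shares and closer together, at 85.2% ± 0.460 against 76.7% ± 3.19 (SD, n = 3 each). The share of Ehd4 stood at 11.9% ± 1.49 in control and 7.65% ± 0.142 in STZ, that of Ehd2 at 9.09% ± 1.42 and 5.50% ± 0.377, and that of Ehd1 at 2.30% ± 0.366 and 1.71% ± 0.0748. With GENCODE lengths the Ehd2 share was 5.72% ± 0.935 and 3.39% ± 0.238, and that of Ehd3 80.6% ± 2.76 and 87.8% ± 0.345. Within a library Ehd3 per kilobase was 7.79, 6.25 and 5.58 times Ehd4 per kilobase in control pools and 11.4, 11.0 and 11.0 times in STZ pools. Ehd1, Ehd2 and Ehd4 together summed to 231 to 265 CPM per kilobase in control and 242 to 254 in STZ, ranges that overlap. A share must fall when another rises, so these shares add no change of their own for Ehd1, Ehd2 and Ehd4. Whether the fold changes of Ehd3 and Ehd4 differ was not tested.

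**Figure D3:**
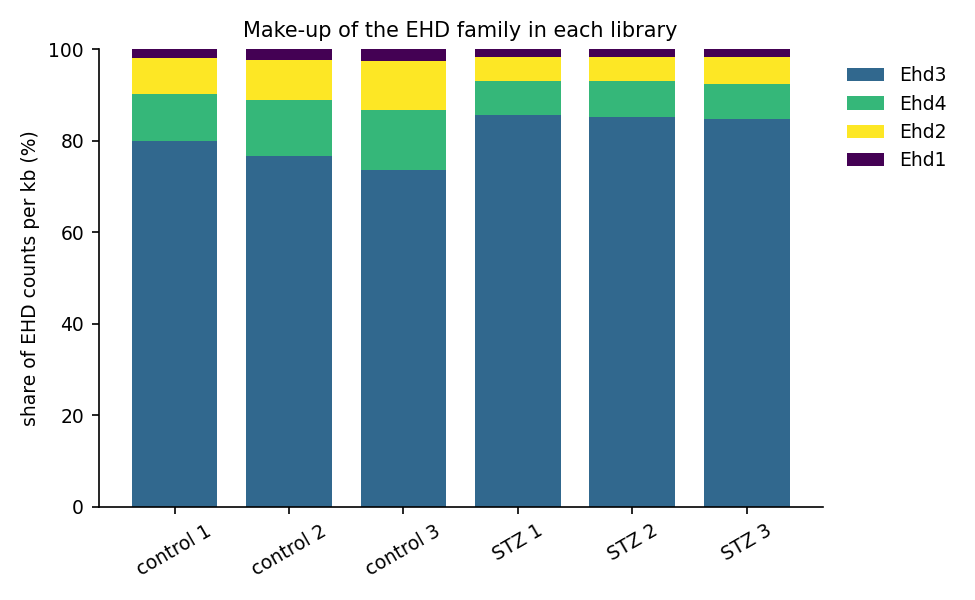
Share of each EHD gene in the summed EHD counts per kilobase of listed transcript (vertical axis, %), for the 3 control and 3 STZ libraries. Ehd3 takes 73.5% to 79.9% of a control library and 84.7% to 85.6% of an STZ library.

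The caveolin genes Cav1 and Cav2 are neighbours on mm10 chromosome 6 and both read on the plus strand, Cav2 (NM_016900) from 17281185 to 17289130 and Cav1 (NM_007616) from 17306335 to 17341328, with 17.2 kb between them. Cav1, which encodes the main coat protein of endothelial caveolae, had 286, 314 and 377 CPM in control pools and 407, 379 and 377 CPM in STZ pools. The highest control pool and the lowest STZ pool were almost level. Cav2, whose product joins caveolin-1 in the coat, had 224, 268 and 220 CPM in control and 304, 297 and 265 CPM in STZ, and its ranges overlapped.

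Neither caveolin gene passed the test with all libraries. The log2 fold change was 0.25 ± 0.11 (SE) for Cav1, with an interval of 0.02 to 0.48 and an adjusted p of 0.169 by edgeR quasi-likelihood. For Cav2 it was 0.28 ± 0.10, with an interval of 0.06 to 0.50 and an adjusted p of 0.109. Both depended on single control pools: without control pool 3 the Cav1 value was 0.37 (adjusted p = 0.0218 by edgeR), and without control pool 2 the Cav2 value was 0.38 (adjusted p = 0.0386). Without control pool 1 the values were lower, at 0.17 for Cav1 (adjusted p = 0.456 by edgeR) and 0.24 for Cav2 (0.296), and without control pool 3 that of Cav2 was also 0.24 (0.204). Cav1 per kilobase was 1.51 ± 0.312 times Cav2 per kilobase in control and 1.46 ± 0.083 times in STZ (SD, n = 3 each), with overlapping ranges. Relative to the pan-endothelial sum, Cav1 stood at 3.07% ± 0.550 in control and 2.88% ± 0.0719 in STZ and Cav2 at 2.23% ± 0.233 and 2.14% ± 0.0933, ranges that overlapped for both genes. Mural cells also express caveolins, and their markers were lower in STZ as given above; their part in these values was not tested.

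Pacsin2 (NM_001159509; mm10 chromosome 15, 83375607 to 83464606, minus strand) encodes an F-BAR protein that curves membrane at the caveolar neck. Its CPM were 136, 139 and 108 in control pools and 143, 120 and 144 in STZ pools. The groups overlapped, and the fold change was 1.06 with an interval of 0.896 to 1.25 (adjusted p = 0.717 by edgeR). This gene has 3 listed transcripts, and how their counts were combined is not given in the sources used here.

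Plvap (NM_032398) lies on mm10 chromosome 8, 71497753 to 71511769, minus strand, and its GENCODE transcript has 6 exons. It had 897, 870 and 584 counts in the control tables and 833, 828 and 926 in the STZ tables, similar numbers from deeper STZ libraries. Scaled, this was 98.6, 140 and 129 CPM in control and 80.5, 71.6 and 74.9 CPM in STZ. All STZ pools lay below all control pools, and the control pools were the more scattered. The mean fell from 122 ± 21.4 to 75.7 ± 4.51 CPM (SD, n = 3 each), a log2 fold change of -0.69 ± 0.12 (SE; adjusted p = 0.0028 by edgeR quasi-likelihood). Thinning every library to the depth of the shallowest left the log2 fold change between -0.75 and -0.64 over 20 random draws, and Plvap was called in each.

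Markers of other kidney endothelium went in both directions, with a median log2 fold change of -0.44. The 8 measured markers of arterial, venous, peritubular and vasa recta endothelium summed to 4151 to 4808 CPM in control and 2890 to 3159 CPM in STZ. Of these, Igfbp5 (log2 fold change -0.60 ± 0.12) and the matrix gene Fbln2 (-0.51 ± 0.09) were called lower and the fatty acid receptor gene Cd36 (1.20 ± 0.13) was called higher. The other 5 did not pass, and 6 of the 8 had an unadjusted p under 0.05 by edgeR. Igfbp5 alone went from 3087 ± 444 to 2034 ± 90.5 CPM, most of the difference in the sum. Their part in the fall of Plvap was not tested. The 3 genes whose profile lay nearest to Plvap were the transcription factor gene Ebf1 (root mean square difference 0.089 on the log2 scale), the kinase gene Nuak1 (0.119) and the ubiquitin ligase gene Rnf144a (0.126). Ebf1 stood at 137 ± 17.5 CPM in control and 82.3 ± 6.94 CPM in STZ (SD, n = 3 each), a difference that follows from picking genes like Plvap.

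The ratio of Ehd3 to Plvap, taken within each library, differed between the groups. Ehd3 per kilobase was 18.8, 11.6 and 11.5 times Plvap per kilobase in control pools 1, 2 and 3. In STZ pools the ratio was 37.7, 39.4 and 37.3. The ratios of the groups did not overlap, and that of control pool 1 was the highest among controls. Ehd3 was higher and Plvap lower in every STZ pool than in any control pool, so this ratio adds no change of its own.

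Aqp1 (NM_007472) lies on mm10 chromosome 6, 55336299 to 55348555, plus strand, with 4 exons in its GENCODE transcript. It encodes a channel that carries water across the membranes of endothelium, proximal tubule and red blood cells. It had 756, 556 and 376 counts in the control tables and 1392, 1339 and 2070 in the STZ tables, or 83.1, 89.3 and 83.1 CPM and 134.6, 116 and 168 CPM. The control pools were close together and the STZ pools were spread, with pool 3 highest and pool 2 lowest. Mean CPM rose from 85.1 ± 3.60 to 139 ± 26.2 (SD, n = 3 each), with a log2 fold change of 0.71 ± 0.12 (SE; adjusted p = 0.00276 by edgeR quasi-likelihood). Without STZ pool 3 the log2 fold change was 0.56 (adjusted p = 0.00858 by edgeR).

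The other cells that make Aqp1 were checked by their markers. The 6 of 12 proximal tubule markers that the tables list summed to 49.3 to 61.9 CPM in control and 36.2 to 48.8 CPM in STZ, and none was called by edgeR (2 had an unadjusted p under 0.05, DESeq2 called 0 and limma-voom called 1 lower). Their members went both ways. The endocytic receptor gene Cubn stood at 19.6 ± 2.11 and 17.0 ± 0.455 CPM. The peroxidase gene Gpx3, at 22.4 ± 7.41 and 10.2 ± 4.84 CPM, differed by about as much as the whole sum. Lrp2, the partner receptor of cubilin, stood at 9.32 ± 0.740 and 12.2 ± 1.40 CPM and was higher in every STZ pool, as Aqp1 was. Gpx3 and Lrp2 are the 2 with an unadjusted p under 0.05, in opposite directions. The 6 of 9 erythroid markers that the tables list went with Aqp1: they summed to 24.4 to 62.6 CPM in control and 136 to 223 CPM in STZ, and 4 were called higher by edgeR and 6 by DESeq2 and by limma-voom. The beta globin gene Hbb-bt stood at 9.33 ± 5.11 CPM in control and 50.1 ± 15.7 CPM in STZ. Among STZ pools the erythroid sum was lowest in pool 3, at 136 CPM, where Aqp1 was highest. The urea transporter gene Slc14a1, found in red cells and descending vasa recta, stood at 5.96 CPM in control and 9.59 CPM in STZ and did not pass (adjusted p = 0.143 by edgeR). The part of red cells in the rise of Aqp1 was not tested.

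Set against transcript length, Ehd3 stood far above the other 8 genes. Its mean level was 820 ± 91.5 CPM per kilobase in control and 1430 ± 65.9 in STZ (SD, n = 3 each), while the next gene, Cav1, stood at 129 ± 18.3 and 153 ± 6.60. In control libraries the order after Ehd3 was Cav1, Ehd4, Ehd2, Cav2, Plvap, Pacsin2, Aqp1 and Ehd1. The ranges overlapped between Cav1 and Ehd4, between Ehd2 and Cav2, and between Pacsin2 and Aqp1. In STZ libraries it was Cav1, Ehd4, Cav2, Ehd2, Aqp1, Plvap, Pacsin2 and Ehd1, with overlap between Cav2 and Ehd2 and between Plvap and Pacsin2. The place of Ehd2 depends on the transcript taken: the listed one has 3058 bases and the GENCODE one 5119. With GENCODE lengths Ehd2 stood at 57.6 ± 5.36 CPM per kilobase in control and 55.1 ± 3.31 in STZ, below Cav2 in both groups and, in control, below the mean of Plvap (61.6 ± 10.7). Aqp1 and Plvap changed places: Aqp1 per kilobase was 0.616, 0.467 and 0.470 of Plvap per kilobase in control pools and 1.22, 1.18 and 1.63 times it in STZ pools.

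**Figure D4:**
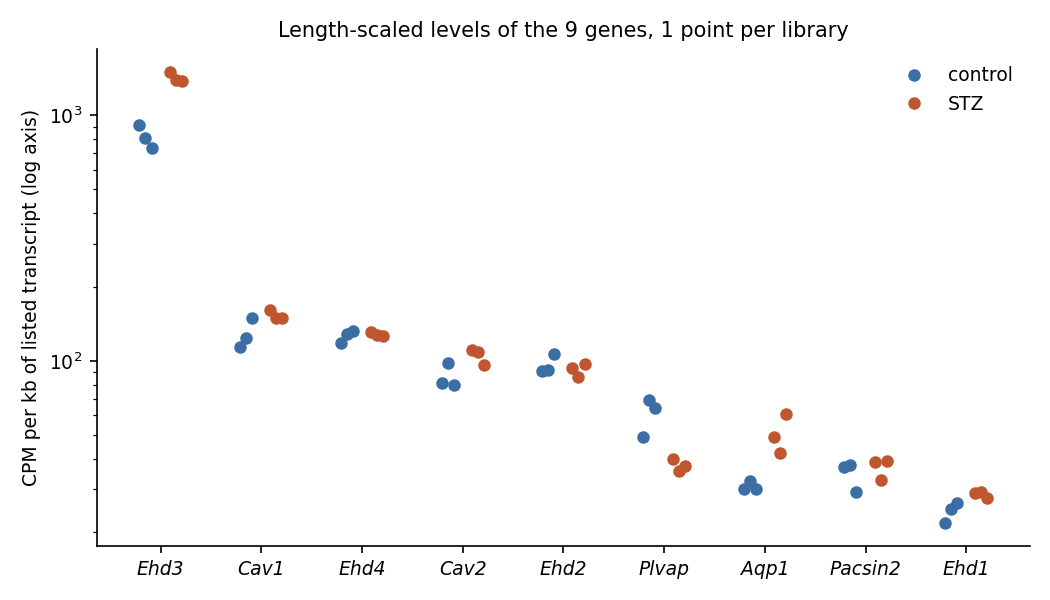
CPM per kilobase of listed transcript length (vertical log axis) for the 9 genes, ordered by their mean, with 1 point per library. Ehd3 lies between 736 and 1505 in the 6 libraries, and the other genes lie between 21.8 and 161.

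Few genes that work with these proteins were called, 6 of 63 measured, a share near the 9.78% of all tested genes. Of 9 genes of the caveolar coat and neck, 6 were measured and 1 was called lower (median log2 fold change -0.02, where all tested genes had -0.01). That gene was Ror1, a receptor that holds caveolar proteins together, at 8.31 ± 0.731 CPM in control and 3.10 ± 0.987 CPM in STZ (-1.41 ± 0.26; adjusted p = 0.00341 by edgeR). The coat genes Cavin1 and Cavin2, listed as Ptrf and Sdpr, had log2 fold changes of -0.23 ± 0.09 (adjusted p = 0.157 by edgeR) and 0.04 ± 0.09 (0.812). Nostrin, a binder of eNOS that keeps it from the membrane, had 0.34 ± 0.10 (adjusted p = 0.0560 by edgeR, and DESeq2 called 1 gene of this list higher). These coat genes and Nostrin did not pass, and they were chosen after their values were seen.

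None of the 23 EHD partners and recycling endosome genes was called by edgeR, and 5 had an unadjusted p under 0.05, while DESeq2 and limma-voom each called 0. Their log2 fold changes ran from -0.47 to 0.31 with a median of 0.05. Numb, an endocytic adaptor, stood at 352 ± 37.2 and 405 ± 26.7 CPM, and the small GTPase gene Rab11a at 238 ± 10.2 and 276 ± 9.92 CPM, in control and STZ (SD, n = 3 each).

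Of 17 measured dynamins and BAR-domain proteins, 3 were called lower and 14 did not pass (median -0.03). Dnm1, a dynamin best known from nerve terminals, fell from 35.2 ± 5.87 to 15.4 ± 2.31 CPM (-1.18 ± 0.16; adjusted p = 0.000357 by edgeR). The F-BAR gene Fnbp1l (-0.38 ± 0.10; adjusted p = 0.033) and the sorting nexin gene Snx18 (-0.39 ± 0.12; 0.0489) lost their calls in 6 and 8 of the 12 other settings. Of 16 clathrin coat and flotillin genes, 1 was called higher and 15 did not pass (median 0.09). Picalm, the clathrin assembly protein, rose from 630.2 ± 34.3 to 1006 ± 17.5 CPM (0.68 ± 0.09; adjusted p = 0.000448 by edgeR). Its libraries were 611, 610 and 670 CPM in control and 1019, 986 and 1013 CPM in STZ, so the groups lay far apart.

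Besides Aqp1 the tables list 1 of 10 other aquaporin genes, Aqp11, a channel of intracellular membranes. It stood at 6.62 ± 1.93 CPM in control and 11.0 ± 1.26 CPM in STZ and was called higher (0.77 ± 0.22; adjusted p = 0.0419 by edgeR). The call held in 5 of 12 other settings, and without STZ pool 1 the adjusted p was 0.177.

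**Figure D5:**
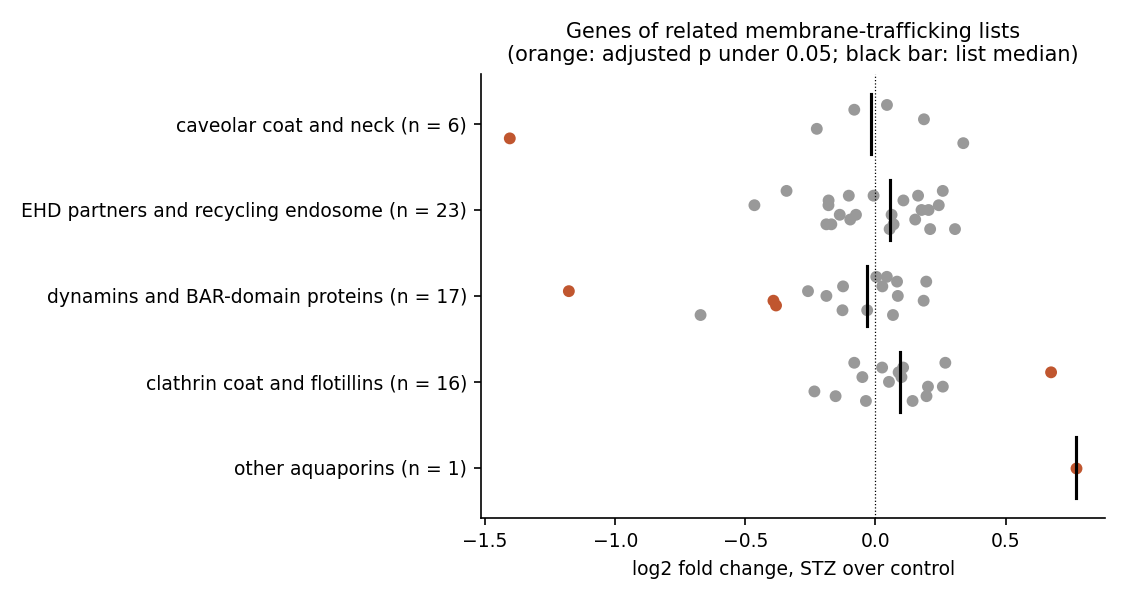
Log2 fold change of STZ over control (horizontal axis) for the measured genes of 5 related lists (vertical axis), 1 point per gene, with orange for an adjusted p under 0.05 and a black bar at each list's median. The medians of the 4 lists with more than 1 measured gene lie between -0.03 and 0.09, and 6 genes are called.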

How the data were processed

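Pooled RNA of sorted glomerular endothelial cells was analysed from 1 table per library (3 control, 3 STZ), grouped by the labels. The deposited files hold 1 expected count per gene, a multiple of 0.5, beside the gene's RefSeq accession, position and length. The submitters' processing notes name mm10 and limma. The sources used here give no aligner, counting tool, strand setting or gene filter. Blank cells were read as 0, counts were rounded, and 1 was added to the listed starts.

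The test was the two-sided, robust quasi-likelihood F test of edgeR 4.0.16 (R 4.3.3) after filterByExpr and TMM, over 12786 genes, with p-values adjusted after Benjamini and Hochberg and called under 0.05. All 9 genes passed the filter. CPM were scaled to TMM library sizes, and log2 CPM used a prior count of 2. SE were derived from the fitted log2 fold change and its F statistic, and 95% intervals from that SE and a t quantile. They are thus no estimate of precision apart from the test. P-values weigh the difference between the groups against the spread between pools, which was estimated with information from all tested genes. The script was tested on simulated data.

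Alternatives were DESeq2 1.42.0, limma-voom (limma 3.58.1), RLE factors, no filter, a replicate block, libraries thinned to 4387312 counts (1 random draw; a set of 20 draws was added after seeing the data), and each library left out. Genes and lists were chosen with earlier results of these data known. Named were the 9 genes and up to 4 called genes per related list (without a call, the 2 most abundant). Named too were the 2 most abundant markers per list and the 3 genes nearest to Ehd3 and to Plvap. Only part of these is printed. Pecam1, Cdh5, Tbx3, Sema5a, Cd36, Fbln2, Lrp2, Slc14a1, Cavin1, Cavin2 and Nostrin were named outside this rule. The 7 measured leukocyte markers summed to 99.6 to 133 CPM in control and 105 to 114 CPM in STZ, with 1 called lower.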

Additional observations from a re-analysis of the deposited data

How the results depend on the processing

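Ehd3, Aqp1 and Plvap kept their direction and stayed past the threshold in all 13 other settings, with log2 fold changes of 0.73 to 0.89, 0.56 to 0.83 and -0.83 to -0.58. The count of called genes among the 9 was 3 or 4 in each. Without 1 library the count over all genes ran from 662 (without STZ pool 1; 720 without control pool 1) to 1291, and that over the related genes from 3 (control pool 2 left out, or STZ pool 1 or 3) to 5, against 1251 and 6 with all; fewer samples were fitted. The small values of Ehd2, Ehd4 and Pacsin2 changed sign without 1 library: Ehd2 ran from -0.103 to 0.0202, Ehd4 from -0.0234 to 0.0612 and Pacsin2 from -0.0175 to 0.160. Ehd4 was also at -0.00778 in the thinned libraries of 1 draw, whose seed was set after another draw had been seen. Of 20 draws added after seeing the data, 2 gave Ehd4 a negative value (range -0.00778 to 0.0432), and Ehd3, Aqp1 and Plvap were called in each. The rise in the Ehd3 share of the family, 8.44 percentage points, was 7.80 on counts without length, 7.16 with GENCODE lengths (added after seeing the data), and ran from 6.85 to 10.0 without 1 library.

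Libraries with the same replicate number in their titles did not stand out as pairs, and the column of control pool 3 carries another number, 4. Deviations from the group means correlated at 0.119, -0.128 and -0.163 for same-numbered libraries. For libraries of different numbers they correlated at -0.243 to 0.295. With 3 libraries in each group these values cannot settle whether the pools were paired. With a replicate block 1001 genes were called, and Ehd3 (0.81), Plvap (-0.68) and Aqp1 (0.69) stayed called, whereas Fnbp1l (adjusted p = 0.0710) and Aqp11 (0.0653) did not.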
